A study of Mus musculus with 6 samples.

Results

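The array carried 2549 probes for RefSeq records whose accession starts with XR, out of 56605 non-control probes (4.5%). These probes were taken from the array's own accession column, and no measured value entered the choice. They represent 2468 accessions, of which 79 had several probes. XR marks a transcript that RefSeq's annotation pipeline predicted as non-coding. NM marks a curated coding record, NR a curated non-coding record and XM a predicted coding record.

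RNA came from C8D1A, a cloned mouse astrocyte line, so all samples derive from 1 clone. All cells were grown for 6 days in medium with 10% serum and then kept in serum-free medium for 24 h. The 3 Control samples were left untreated and the 3 PRF samples received pulsed radiofrequency, bursts of high-frequency current used against neuropathic pain. The study asked which genes respond to this stimulation in astrocytes. For its settings, and for how long after it RNA was taken, the sources used here give no value. The labels speak of 3 independent experiments, and nothing says that they were separate thaws or passages, so the p-values measure only the spread between these samples.

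Long non-coding RNAs are transcribed from DNA as messenger RNAs are but encode no known protein. Many are made at low levels and in few cell types. Some act where they are transcribed and affect a neighbouring gene, others act elsewhere in the cell, and for most predicted records no function is known. Opposite-strand transcripts are a common class: they start near, or run through, a coding gene in the reverse direction and are named after it.

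Only 785 XR probes (30.8%) could be matched to a gene in RefSeq's table (assembly GRCm38.p6), and they covered 751 genes. The other 1764 probes are given by accession. Of the matched probes, 747 belonged to genes listed as lncRNA, 19 to miscellaneous RNA, 18 to protein-coding genes and 1 to a transcribed pseudogene. Most matched symbols were placeholders: 636 genes had a Gm symbol and 76 a Rik symbol. Another 10 genes were named as opposite-strand transcripts of a coding gene.

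The start regions of 4 matched genes are shown because the results below turn on these transcripts. Gm34526 had the largest rise among probes detected on all 6 arrays. Junos, Dmrta2os and Rapgef3os2 are opposite-strand transcripts that passed the test together with their coding partners. Each sequence is from RefSeq, build GRCm38.p6, and runs from 250 bases before to 50 bases after a listed start on the gene's own strand. Gm34526 is at chr13:86037932-86038231 on the minus strand, Junos at chr4:95052067-95052366 on the plus strand, Dmrta2os at chr4:109979561-109979860 on the minus strand and Rapgef3os2 at chr15:97761328-97761627 on the plus strand. For Junos, 7 starts were listed and for Dmrta2os 3, and the one with the lowest coordinates is shown. Capitals mark a heat shock element core (GAANNTTC, bound by heat shock factors) or a match to TGANTCA. The latter is a loose pattern of the AP-1 site, which Jun and Fos proteins bind. N stands for any base, so a match need not be a bound site.
Gm34526: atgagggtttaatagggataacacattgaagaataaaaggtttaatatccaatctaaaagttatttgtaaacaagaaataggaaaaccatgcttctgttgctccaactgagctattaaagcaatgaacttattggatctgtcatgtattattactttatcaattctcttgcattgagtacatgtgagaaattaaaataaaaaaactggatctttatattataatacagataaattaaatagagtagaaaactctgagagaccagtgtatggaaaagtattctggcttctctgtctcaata
Junos: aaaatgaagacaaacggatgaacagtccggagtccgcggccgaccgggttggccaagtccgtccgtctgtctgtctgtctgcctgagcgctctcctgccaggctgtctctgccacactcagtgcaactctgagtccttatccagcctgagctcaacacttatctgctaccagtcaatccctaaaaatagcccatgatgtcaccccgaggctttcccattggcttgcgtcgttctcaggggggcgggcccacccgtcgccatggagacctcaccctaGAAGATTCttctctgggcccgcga
Dmrta2os: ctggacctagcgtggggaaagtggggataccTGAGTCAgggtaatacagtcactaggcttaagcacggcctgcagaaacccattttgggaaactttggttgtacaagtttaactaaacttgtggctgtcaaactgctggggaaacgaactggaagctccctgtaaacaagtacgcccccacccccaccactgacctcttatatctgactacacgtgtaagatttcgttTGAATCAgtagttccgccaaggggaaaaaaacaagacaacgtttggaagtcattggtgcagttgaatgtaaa
Rapgef3os2: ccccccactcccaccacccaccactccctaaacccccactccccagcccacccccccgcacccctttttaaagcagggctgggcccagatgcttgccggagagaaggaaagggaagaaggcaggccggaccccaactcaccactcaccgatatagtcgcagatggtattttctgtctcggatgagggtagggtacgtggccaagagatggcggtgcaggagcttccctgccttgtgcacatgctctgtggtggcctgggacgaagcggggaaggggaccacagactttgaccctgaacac

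The Junos window held the heat shock element core from position 277, counted from the first base shown. The Dmrta2os window held matches to the AP-1 pattern from positions 32 and 229. Neither the Gm34526 nor the Rapgef3os2 window held a match to these motifs, to the cyclic AMP response element (CRE, TGACGTCA) or to the EGR site (GCGNGGGCG), on either strand. Promoters were listed for 551 of the 751 matched genes. The heat shock element core stood in 4 of 33 promoters of genes with a raised XR probe (12.1%), in 4 of 17 with a lowered one (23.5%) and in 6 of 77 of the other tested genes (7.79%). Counted the same way, by gene, 12.0% of all matched XR genes and 9.04% of all genes of the table held it, so the raised genes were at the XR share. It stood in 7.86% of the 32851 single promoters. Matches to the AP-1 pattern gave the same counts in these 3 groups, beside 13.8% of all matched XR genes, 8.97% of all genes and 7.81% of single promoters. No raised or lowered gene had a CRE, which 0.907% of matched XR genes and 2.03% of all genes held (1.79% of promoters). An EGR site stood in 1 raised gene, beside 1.09% of matched XR genes and 6.27% of all genes (5.55% of promoters). These matches describe letters in a window and say nothing of binding.

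A level here is the log2 processed signal of a probe minus the 75th percentile of its array, so 0 lies at that percentile and 1 unit is a doubling. A probe was called detected on an array where the scanner software flagged it well above background. The XR class was dim. Its median Control level was -7.52, against -1.98 for NM probes. On the Control arrays, 30.0% ± 1.14 (SD, n = 3) of XR probes were detected, with single arrays between 29.1% and 31.3%. On the PRF arrays the share was 34.3% ± 1.31 (SD, n = 3), between 32.9% and 35.5%, and the groups did not overlap. The same shift was seen in the other classes: NM detection went from 68.6% ± 0.666 to 71.3% ± 0.755, NR from 40.5% ± 1.1 to 44.5% ± 1.4 and XM from 51.7% ± 1.59 to 54.6% ± 0.603 (SD, n = 3 each). With 3 arrays a group no exact permutation test of a share could fall below 0.10, so none was run.

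**Figure D1:**
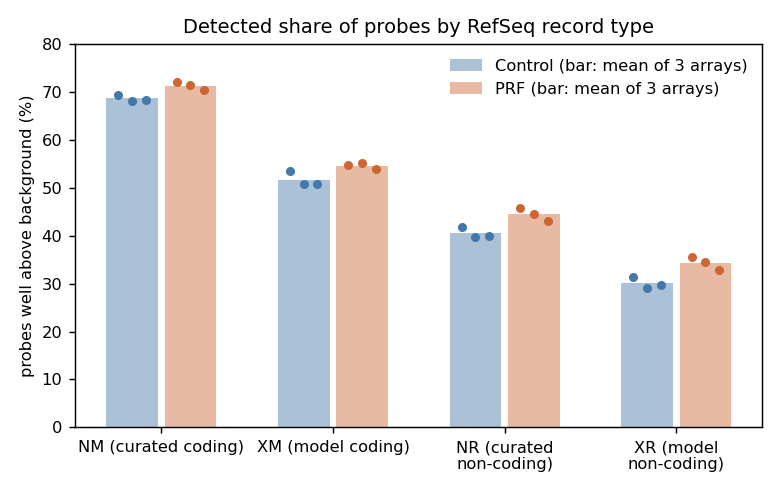
Share of probes flagged well above background (%, vertical axis) for 4 types of RefSeq record, with bars for the mean of 3 arrays and points for single arrays. XR probes have the lowest share in both groups, 30.0% in Control and 34.3% in PRF, and the PRF points lie above the Control points in all 4 classes.

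Most XR probes gave no detected signal in either condition. Of the 2549, 1521 were detected on no array and 671 on all 6. The remaining probes were detected on some arrays. Among these, 72 were dark on all Control arrays and detected on all PRF arrays, and 5 showed the reverse. XR records that matched the RefSeq table were seen less than those that did not: 22.5% of matched and 36.3% of unmatched probes were detected on all arrays of at least 1 group. A brighter probe can reflect its own binding strength as well as more RNA, so levels of different probes are compared below only as brightness.

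The test was run on all 34838 probes detected on all 3 arrays of at least 1 group, and 818 XR probes (32.1%) were among them, against 70.0% of NM probes. A probe dark in Control cells could enter through its PRF signal alone. By limma's moderated test with Benjamini-Hochberg adjustment at 0.05, 247 tested XR probes (30.2%) were higher in PRF, where 18.4% of all tested probes were. Lower in PRF were 105 (12.8%), where 12.7% of all were. NM probes gave 14.3% higher and 11.8% lower, NR probes 27.6% and 12.8%, and XM probes 21.9% and 12.8%. By fitted change, 148 XR probes rose at least 2-fold (18.1%, against 8.35% of all tested) and 11 fell as much (1.34%, against 0.746%). The entry rule favours rises here, since 70 of the 148 were dark on all Control arrays and have only a bound. Among the 671 XR probes detected on all 6 arrays, 145 were higher (21.6%) and 96 lower (14.3%), where all such probes gave 14.8% and 13.3%. At 2-fold or more these counts were 56 (8.35%, against 4.4% of all) and 8 (1.19%, against 0.6%).

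Rises made up 70.2% of the XR calls, and 59.4% when the fit was limited to probes detected on all 6 arrays. The split also moved with the scaling of the arrays. It was 63.1% when arrays were centred on the tested probes' median, 56.4% with no scaling, 49.1% with scaling to spike-in RNA, 48.9% with quantile normalization and 77.0% with normexp background correction. The median change of the tested XR probes was 0.12, against 0.02 over all tested probes. It changed sign, to -0.02, -0.07 and -0.07, with no scaling, spike-in scaling and quantile normalization. No scaling and spike-in scaling moved the median of all tested probes to -0.12 and -0.18. Relative to that median the XR probes stood 0.10 higher under both, as in the main setting. These settings shift all probes of an array by the same amount, so this gap could not differ between them. Quantile normalization is not such a shift, and it left the XR probes 0.01 below the median of all tested probes.

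The arrays lay in both rows of 1 slide, and each row held both groups. Row 1 (Control 1, Control 3 and PRF 2) alone gave 147 XR probes higher and 15 lower. Row 2 (Control 2, PRF 1 and PRF 3) alone gave none in either direction after adjustment, with 276 at an unadjusted p under 0.05 by limma. Row 1 holds a single PRF array and row 2 a single Control array, so 1 arm of each fit has no replicate and is assumed to vary like the other, and these counts do not show how the calls depend on the row. With the row as a block, 221 were higher and 75 lower. The count of falls was lower with any 1 array left out, which leaves fewer arrays to fit. Without Control 1, 2 or 3 it was 67, 76 and 61, and without PRF 1, 2 or 3 it was 74, 62 and 96.

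The PRF arrays did not share a rise equally. Of the 247 XR rises, PRF 1 had the highest of the 3 PRF levels in 179 (72.5%) and PRF 3 the lowest in 183 (74.1%). Rises over all probes showed the same order, with PRF 1 highest in 64.8% and PRF 3 lowest in 70.0%. No such order was as marked in the Control arrays, where the largest share held by 1 array among the XR rises was 40.9%.

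**Figure D2:**
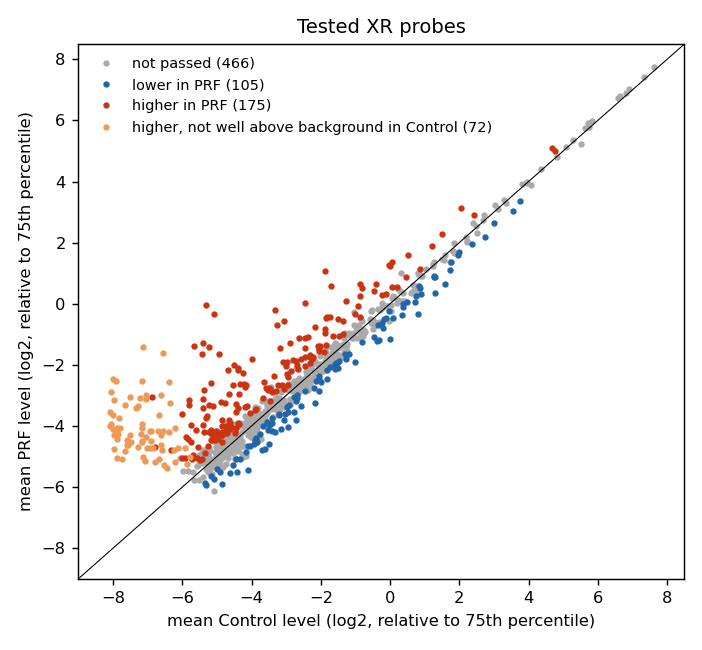
Mean PRF level against mean Control level of the 818 tested XR probes (log2 relative to the 75th percentile; each mean is over 3 arrays), with the line of equal levels. Rises reach much farther from the line than falls, and the 72 probes not well above background in Control cells form the left edge.

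Among NM probes rises were most frequent between -5 and -4 (25.8%) and least frequent above 3 among detected levels (5.58%), so XR probes were set against NM probes of the same Control level. In bins of 1 log2 unit, 9.69% of all XR probes and 9.54% of NM probes weighted to the XR levels were called higher, a ratio of 1.02. Over 14 settings this ratio ranged from 0.923 to 1.15. The upper end came from probes detected on all 6 arrays, where the shares were 21.6% and 18.7%. In the shares of all probes, those not tested count as not called. The gap between the classes in raw shares, 30.2% against 14.3% of tested probes, shrank to 30.2% against 27.3% at equal level. Gains of detection were 2.82% of XR probes and 3.44% of NM probes at those levels. Bin medians of the change, averaged with the XR bin counts as weights, were 0.09 for XR and 0.10 for NM over all probes. Over tested probes these averages were 0.353 and 0.35.

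For falls the raw shares of tested probes were close, 12.8% of XR and 11.8% of NM, and at equal level they were 12.8% and 8.41%. Over all probes at equal Control level, 4.12% of XR and 2.70% of NM probes were called lower, a ratio of 1.53. This ratio ranged from 1.08 with spike-in scaling to 1.81 without PRF 1, and was 1.15 with quantile normalization. Among probes detected on all 6 arrays the shares were 14.3% and 9.64%. The bins show where the classes parted. Between -4 and -3, 17.6% of 119 XR probes fell, against 6.63% of 1478 NM probes. Between 1 and 3 the shares were 33.3% of 36 and 15.8% of 4691. Rises parted above -3: between -3 and -2, 25.2% of 111 XR probes and 17.1% of 1595 NM probes rose, and between 0 and 1 the shares were 17.5% of 40 and 7.24% of 2306. Between -5 and -4 the shares were 23.8% and 25.8%. These shares were not tested between classes, since the probes share 6 samples.

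**Figure D3:**
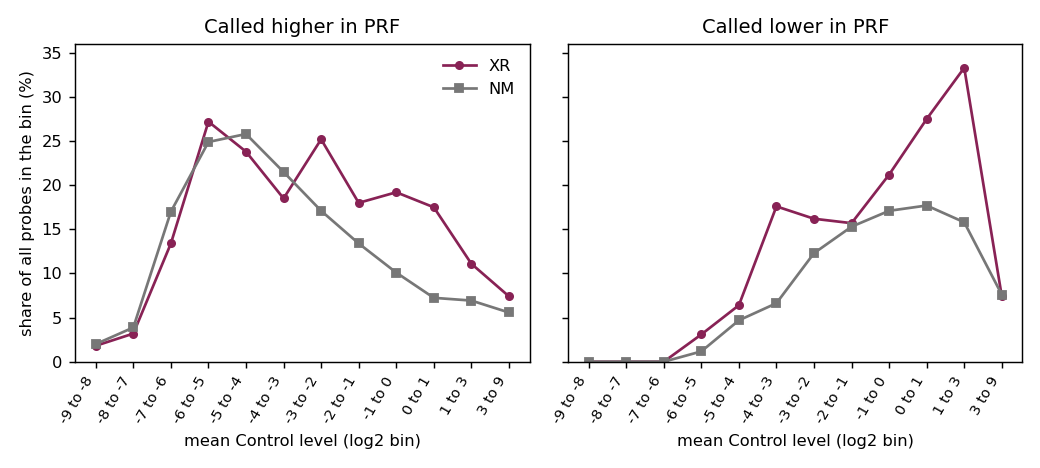
Share of all probes called higher (left) and lower (right) in PRF (%), by bins of mean Control level, for XR and NM probes. The rises of both classes lie near each other in the bins below -3, and the XR line lies above the NM line for falls in every bin from -6 up to 3, by 17.6% against 6.63% between -4 and -3.

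Of the 12 largest rises among XR probes detected on all 6 arrays, 4 were matched to a gene and the others are known by accession alone. With normexp background correction the 12 changes ran from 1.09 to 2.74 on the log2 scale, each smaller than in the main setting given below. That setting also adds an offset of 50 to every signal, which by itself shrinks the changes of dim probes. Gm34526, an lncRNA gene of no known function, had Control levels of -5.15, -5.23 and -4.84 and PRF levels of -0.33, -0.14 and -0.58. This was a rise of 4.72 ± 0.15 (SE) on the log2 scale, or 26.4-fold (limma adjusted p = 3.31e-05). The rise was 2.74 with normexp background correction. All 3 PRF arrays stood far above all Control arrays. Its nearest coding gene, Cox7c, a subunit of cytochrome c oxidase, changed by 0.09 (adjusted p = 0.384).

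XR_861814, which has no matched gene, had Control levels of -5.40, -5.10 and -5.23 and PRF levels of -1.09, -1.35 and -1.79. It rose 14.2-fold, by 3.83 ± 0.18 (limma adjusted p = 8.52e-05). XR_868666 had Control levels of -3.1, -3.51 and -3.35 and PRF levels of 0.27, -0.16 and -0.69, an 8.74-fold rise. In both records the PRF arrays differed among themselves and still cleared the Control levels by over 2 log2 units.

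B230369F24Rik, an lncRNA gene that overlaps a predicted coding locus, was brighter to begin with. Its Control levels were -1.79, -2.00 and -1.88, and its PRF levels were 1.29, 1.05 and 0.83. The rise was 2.95 ± 0.13, or 7.71-fold (limma adjusted p = 7.27e-05). Gm26583, an lncRNA gene next to Brf1, rose 5.58-fold from Control levels of -2.31, -2.37 and -2.68 to PRF levels of 0.47, -0.05 and -0.34. Brf1, a subunit of the RNA polymerase III initiation factor, changed by -0.13 (adjusted p = 0.141).

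The other unmatched records among the 12 largest rises were XR_391412, XR_861541, XR_864582, XR_405339, XR_863608 and XR_399965. Their folds ran from 4.87 to 5.94, with limma adjusted p between 5.4e-05 and 0.00385. XR_391412 was the least even, with PRF levels of -1.86, -2.60 and -3.30. XR_861541 was the most even, with Control levels of -3.21, -3.30 and -3.30 and PRF levels of -0.57, -0.64 and -0.89. Groups did not overlap in any of these records, which the choice of named records required.

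**Figure D4:**
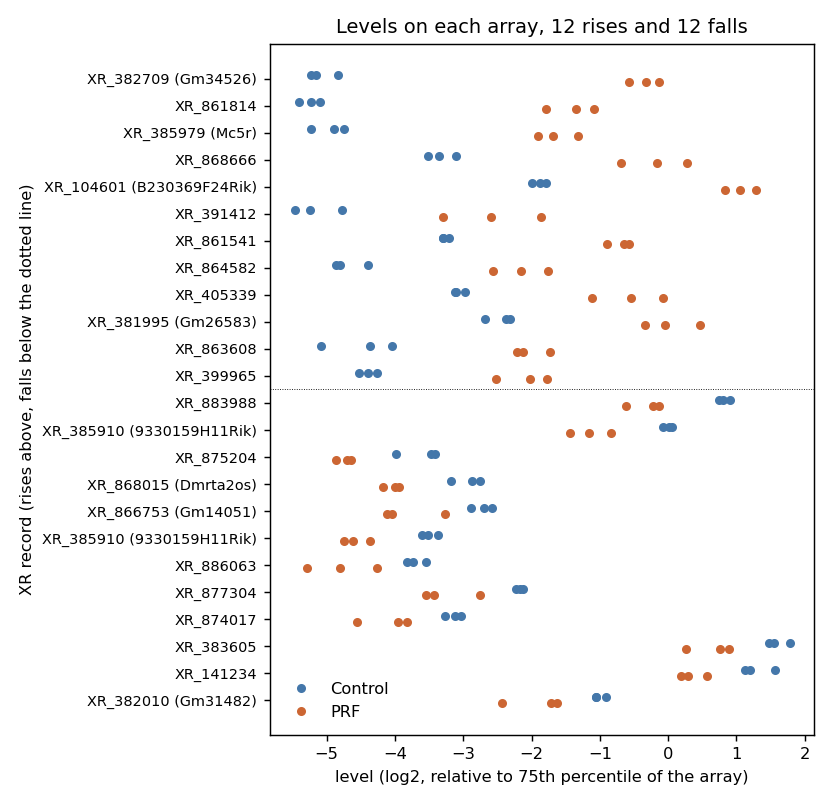
Level on each of the 6 arrays (log2 relative to the array's 75th percentile) for the 12 largest rises, above the dotted line, and the 12 largest falls, below it, among XR probes well above background on all arrays. Control and PRF points are separated in each, by much more in the rises (4.72 for Gm34526) than in the falls (-1.14 for XR_883988).

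Falls were smaller. Gm36086, an lncRNA gene named after its values were seen, had the largest fitted fall of all called XR probes, at -1.36 (2.57-fold, limma adjusted p = 0.00188). It was detected on 2 of the 3 PRF arrays, with Control levels of -4.39, -3.85 and -4.03 and PRF levels of -5.54, -5.24 and -5.57. Among probes detected on all 6 arrays, the 12 largest falls lay between -1.14 and -0.92 on the log2 scale, and 8 of the 12 were at least 2-fold. With normexp background correction these 12 changes were smaller, between -1.01 and -0.285. XR_883988 had Control levels of 0.91, 0.75 and 0.80 and PRF levels of -0.61, -0.22 and -0.14, a 2.21-fold fall (limma adjusted p = 0.00177). The PRF values varied more than the Control values, yet none reached the Control range.

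9330159H11Rik, an lncRNA gene, fell on both of its probes. The brighter probe had Control levels of 0.06, -0.07 and 0.01 and PRF levels of -1.43, -1.16 and -0.83. The dimmer probe had Control levels of -3.52, -3.61 and -3.37 and PRF levels of -4.62, -4.74 and -4.37. Both fell by a like amount, -1.14 ± 0.15 and -1.08 ± 0.12 (limma adjusted p = 0.0029 and 0.00141). With normexp background correction the brighter probe changed by -0.985 and the dimmer by -0.332. The offset of that setting shrinks the dimmer probe's change more, so it cannot show whether the changes are of like size.

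Gm14051, which overlaps the vitamin C transporter gene Slc23a2, fell 2.12-fold (limma adjusted p = 0.0159). Its PRF levels were -4.11, -4.05 and -3.26, against -2.69, -2.88 and -2.58 in Control. Slc23a2 changed by 0.11 (adjusted p = 0.262). XR_383605 and XR_141234 fell from positive levels, 1.60 ± 0.16 and 1.30 ± 0.24 in Control to 0.63 ± 0.33 and 0.35 ± 0.20 in PRF (SD, n = 3). XR_875204, XR_886063, XR_877304, XR_874017 and Gm31482 fell between 1.90- and 2.17-fold. The calls of Gm14051, XR_886063 and Gm31482 were lost when single arrays were left out: Gm14051 without Control 3 or PRF 2, XR_886063 without Control 2, Control 3 or PRF 2, and Gm31482 without any 1 of the Control arrays or with the slide row as a block.

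The 72 XR records that went from dark to detected made up 4.23% of the 1703 that were dark on all Control arrays, where the share over all probes was 5.38% and over NM probes 5.70%. All 72 were also called higher, which the entry rule largely fixes. For such probes the fold has only a bound, set by the lowest signal that counted as detected on each array. The bounds hold for the processed signal of the main setting only. With normexp background correction the changes of the named gains ran from 1.09 to 2.16 on the log2 scale, each smaller than its bound. The offset of that setting shrinks changes that start from so dim a level. The bounds ran from 1.3-fold to 20.7-fold with a median of 2.87, and 58 of the 72 reached 2-fold. The gained share was 5.70% when PRF 3 was left out.

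XR_141321 had Control levels of -6.15, -7.71 and -7.56, none well above background, and PRF levels of -1.24, -1.33 and -1.62. It was at least 20.7-fold higher in PRF (limma adjusted p = 0.000288). XR_870077 had PRF levels of -1.06, -1.69 and -2.07 and was at least 17.9-fold higher. XR_396502 had Control levels of -6.36, -6.42 and -6.38 and PRF levels of -2.26, -2.64 and -2.82, a gain of at least 9.18-fold. With normexp background correction XR_141321, XR_870077 and XR_396502 changed by 2.16, 1.99 and 1.41 on the log2 scale, less than these bounds. Their mean PRF levels lay above -3.49, the median Control level of the tested XR probes.

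XR_141259, XR_379175, XR_406668 and XR_393718 had bounds between 7.44 and 9.88. Gm15558, an lncRNA gene that overlaps Clec16a, had Control levels of -6.95, -6.65 and -6.22 and PRF levels of -2.20, -2.97 and -3.78. It was at least 6.91-fold higher (limma adjusted p = 0.00148). Clec16a, which encodes a protein of endosomal and mitochondrial turnover, fell by 0.29 (adjusted p = 0.0353).

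Loss of detection was rare. It was seen in 5 of the 1581 XR probes dark on all PRF arrays (0.316%), where the share over all probes was 0.417%. The bounds ran from 1.27-fold to 1.75-fold, so none reached 2-fold. XR_873567 had the largest, with Control levels of -5.01, -4.85 and -4.66 and PRF levels of -6.16, -5.54 and -6.01. XR_863970, XR_378180 and the lncRNA gene Gm33047 had bounds of 1.48, 1.40 and 1.30. All 4 calls were lost with normexp background correction, under which XR_863970 changed by 0.01. The offset of that setting shrinks changes this near background. The call of XR_378180 was also lost without Control 1, Control 3 or any 1 of the PRF arrays.

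The brightest XR records did not pass the test. XR_888583 had Control levels of 7.67, 7.54 and 7.68 and PRF levels of 7.75, 7.82 and 7.71 (limma adjusted p = 0.197). XR_382082, XR_883517, XR_862890, XR_140944 and XR_140431 had mean Control levels from 6.59 to 7.32. Their changes ran from 0.09 to 0.17 with adjusted p from 0.102 to 0.355. The sign of these small differences turned with the scaling, for all 6 under spike-in scaling. No XR spot was saturated.

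Some accessions had several tested probes, which read the same record at different places. There were 19 such accessions. In 8 of them the brighter and the dimmer probe both passed the test, always in the same direction. In 6 only 1 of these probes passed and in 5 neither did. The changes of the brighter and the dimmer probe had a Spearman correlation of 0.858 over the 19 accessions, which share the 6 arrays. XR_390171, picked after its values were seen, was an even case, with rises of 1.35 and 1.28.

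Size could still differ widely within a record, as in 2 accessions picked for this difference. On XR_865273 the brighter probe had Control levels of -4.10, -4.13 and -3.91 and PRF levels of -3.65, -3.64 and -3.48, a rise of 0.45 (limma adjusted p = 0.0121). Its dimmer probe was dark in Control, at -7.07, -7.01 and -7.76, and had PRF levels of -2.94, -3.33 and -3.74. On XR_406668 the brighter probe changed by 0.34 (adjusted p = 0.0619) while the dimmer went from dark to detected, with a bound of 9.48-fold. In both records the probe that was dimmer over the 6 arrays had the larger change.

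For 7 genes an XR probe and an NM probe were both tested, and their changes were compared array by array. The XR and NM changes differed in 1 of the 7 (14.3%), Mc5r, which encodes melanocortin receptor 5. Its XR probe had Control levels of -5.23, -4.89 and -4.74 and PRF levels of -1.32, -1.68 and -1.90, a 9.99-fold rise (limma adjusted p = 0.000134). Its NM probe stood at -5.06 ± 0.11 in Control and -4.84 ± 0.36 in PRF (SD, n = 3; adjusted p = 0.392). The difference between the changes was 3.1 ± 0.29 (SE), with a limma p adjusted over the 7 genes of 8.36e-05. It was 1.61 with normexp background correction.

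In the other 6 genes the difference lay between -0.20 and 0.14 and did not pass. For Tubgcp5, a subunit of the gamma-tubulin complex, the XR probe fell by 0.55 and the NM probe by 0.44 (limma adjusted p = 0.0243 and 0.00903). For Tpcn2, an endolysosomal ion channel, the XR probe fell by 0.52 (adjusted p = 0.00349) and the NM probe changed by -0.32 (adjusted p = 0.0626). Acap2, Gpr137b, Aatf and Rexo5 had XR changes from -0.41 to -0.18, none of which passed. The number of unequal pairs was 4 of 7 with normexp background correction, whose offset shrinks the change of the dimmer probe of a pair more.

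Of 10 XR genes named as opposite-strand transcripts, 4 were tested and all 4 passed, 2 higher and 2 lower, where 18.4% of all tested probes were higher and 12.7% lower. They were singled out after their values were seen. Junos lies upstream of Jun on the other strand, and Jun encodes a subunit of the AP-1 transcription factor. The Junos probe had Control levels of -5.42, -4.85 and -5.42 and PRF levels of -4.11, -4.35 and -4.12, a 2.05-fold rise (limma adjusted p = 0.00653). Jun had Control levels of 5.29, 5.13 and 4.93 and PRF levels of 5.81, 5.78 and 5.62, a 1.54-fold rise (adjusted p = 0.00884). Groups did not overlap for either transcript. The call of Jun was lost with no scaling (adjusted p = 0.0668). The Junos change went down to 0.352 over all settings, and its limma adjusted p reached 0.0498 outside the single rows.

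Dmrta2os overlaps Dmrta2, which encodes a transcription factor of brain development. It had Control levels of -2.87, -3.18 and -2.75 and PRF levels of -3.94, -4.18 and -4.00, a 2.15-fold fall (limma adjusted p = 0.00175). Its log2 change was -0.446 with normexp background correction. Dmrta2 went from -0.67, -0.48 and -0.37 to -1.16, -1 and -0.73, a 1.37-fold fall (adjusted p = 0.0443). The Dmrta2 groups nearly met, and its call was lost under 8 of the other settings, among them those without Control 2, Control 3, PRF 1 or PRF 2, with adjusted p up to 0.127 outside the single rows.

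Rapgef3os2 overlaps Rapgef3, which encodes EPAC1, a cyclic AMP sensor. It had Control levels of -3.16, -3.63 and -3.17 and PRF levels of -4.35, -3.94 and -4.33, a 1.85-fold fall (limma adjusted p = 0.0108). With normexp background correction its adjusted p was 0.0842. Rapgef3 went from 1.97, 2.12 and 2.21 to 1.55, 1.60 and 1.65, a 1.42-fold fall (adjusted p = 0.00634).

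B9d1os lies upstream of B9d1, a gene of the ciliary transition zone, on the other strand. It had Control levels of -2.79, -2.89 and -2.91 and PRF levels of -2.18, -2.11 and -2.29, a 1.59-fold rise (limma adjusted p = 0.00167). B9d1 changed by 0.14 and did not pass (adjusted p = 0.218). Fgf2os, opposite to the growth factor gene Fgf2, was not tested on either of its XR probes. The brighter probe was dark on all Control arrays and detected on PRF 1 and PRF 2, at -4.68 and -5.07, while PRF 3 stood at -6.12. The dimmer probe was detected on no array, with mean levels of -7.32 in Control and -7.1 in PRF. Fgf2 itself rose 1.92-fold (adjusted p = 0.000438). Whether each probe lies on the strand of its record was not checked, as no probe sequences were used here.

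**Figure D5:**
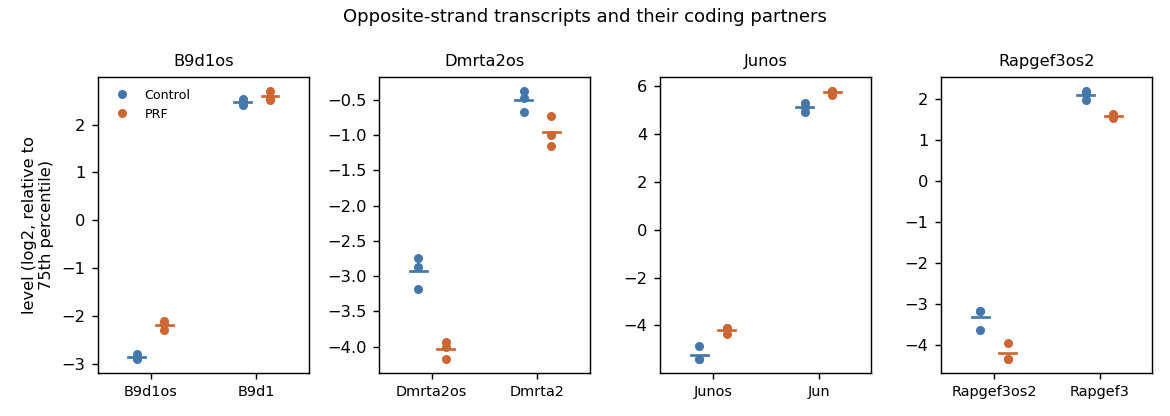
Levels on single arrays (points) with group means (lines) for 4 opposite-strand XR transcripts and the coding genes they are named after (log2 relative to the 75th percentile; each panel has its own vertical scale). Junos and Jun are both higher in PRF, Dmrta2os and Rapgef3os2 are lower with Dmrta2 and Rapgef3, and B9d1os is higher while B9d1 changes by 0.14.

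A tested coding neighbour was found for 127 of 156 tested genes. Both were higher in 3 (2.36%), both lower in 4 (3.15%), and the calls were opposite in 6 (4.72%). Among 10942 pairs of neighbouring coding genes these shares were 2.59%, 2.39% and 3.22%. The changes of gene and neighbour had a Spearman correlation of 0.0581 over the 127 pairs, beside 0.0686 over the coding pairs, all from the same 6 arrays. The pairs with both higher were Junos and Jun, Gm28068 with Ly6i, and Gm2895 with Ndrg1. The pairs with both lower included Gm15738 with Mrtfb, a coactivator of serum response factor, and Gm35340 with Kbtbd11.

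All 6 opposite pairs are named here, as are pairs above, because their calls were seen. Gm38411 was dark in Control and at least 6.83-fold higher in PRF, while its neighbour C2cd4d fell by 1.56 (limma adjusted p = 0.00992). Gm38444 rose by 2.20 (adjusted p = 0.00188), and its neighbour Usp2, a deubiquitinase gene, fell by 0.55 (adjusted p = 0.0111). Gm35463 rose by 1.66 (adjusted p = 0.00673) within Eml5, which fell by 0.39 (adjusted p = 0.00569). The others were BC040756 with Abcc10, Gm34589 with Kctd12 and Gm15558 with Clec16a.

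Better known non-coding RNAs sit on this array under NR records, and none of the list of 46 had an XR probe. Of them 34 had a probe and 26 were tested, with 8 higher and 4 lower. Over all tested NR probes 27.6% were higher and 12.8% lower, and over all tested probes 18.4% and 12.7%. The largest rises were in Dleu2, host of a microRNA cluster, by 1.18 ± 0.08 (SE; limma adjusted p = 0.000252), and Airn, the imprinted antisense RNA of Igf2r, by 1.17 ± 0.10 (adjusted p = 0.000548). Kcnq1ot1, another imprinted antisense RNA, rose by 0.84 (adjusted p = 0.0119). Neat1, the scaffold of nuclear paraspeckles, fell by 0.56 (adjusted p = 0.00657), and Firre, an X-linked nuclear RNA, fell by 0.62 (adjusted p = 0.00467). Carmn had the largest fall, at -0.669 (limma adjusted p = 0.0253), and Oip5os1 changed by -0.3 (adjusted p = 0.0119). Values are of 1 probe per gene, also where a gene had several, such as Kcnq1ot1 with 5. The median change over the 26 was 0.04.

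The astrocyte label was checked on 12 markers, of which 10 were detected on all arrays. Slc1a3 and Gja1 were well above background on none. Markers of other cell types were present too: all 5 oligodendrocyte markers were detected on all 6 arrays, among them Sox10, as were 2 of 6 neuronal, 3 of 6 microglial, 1 of 4 endothelial and 2 of 5 fibroblast markers. Summed over each list on the linear scale, microglial markers lay between 8.88 and 9.27 in Control and between 13.2 and 17.9 in PRF. Itgam carried most of this sum, at 8.4 in Control and 15.1 in PRF (limma adjusted p = 0.00406), while Tmem119 changed by -0.253 and Csf1r by 0.155, and neither passed. Fibroblast sums were 0.289 to 0.378 in Control and 0.537 to 0.557 in PRF, with Col1a2 higher by 2.72 and Col1a1 by 0.44, while Pdgfra changed by -0.67 and did not pass (adjusted p = 0.0706). Endothelial sums were 0.139 to 0.144 and 0.169 to 0.189. Kdr, dark in Control, was the 1 endothelial marker that passed, and Pecam1 changed by -0.0888. Astrocyte sums were 62.1 to 67.6 and 71.1 to 74.5, mostly S100b, which did not pass (adjusted p = 0.185), while Glul, Clu and Apoe rose. The neuronal and oligodendrocyte sums overlapped between groups, but some of their members passed. Snap25 changed by 0.973 and Mbp by 0.992 (limma adjusted p = 0.0127 and 0.00847). Mog and Sox10 changed by -0.401 and -0.361 (adjusted p = 0.0202 and 0.0451). The other tested members of these lists did not pass. The microglial markers Aif1, Cx3cr1 and P2ry12 were well above background on no array, and the part of these shifts in the XR results was not tested. In bulk RNA, more cells of a kind and more RNA per cell cannot be told apart.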

How the data were processed

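Scanner output of 6 arrays was used, 3 Control and 3 PRF samples on 1 slide. The deposited intensity values are background-corrected processed signals that the authors took from Agilent's Feature Extraction software (version 10.7.3.1, per the file headers) and are not normalized between arrays. The deposited series table holds the same intensity (equal within a relative tolerance of 0.0001 for 100% of matched probes), with column medians from 36.3 to 50.0. It was neither logged nor centred.

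Control spots and outlier spots were left out, spots of a probe were averaged on the log2 scale, and each array's 75th percentile was subtracted. Probes were fitted with limma 3.58.1 (R 4.3.3, lmFit and eBayes) with group as the only term. All 34838 probes detected on all 3 arrays of at least 1 group entered, a probe with several spots counting as detected if most of them were. The script was tested on simulated data. Alternatives covered scaling, background, filter, slide row, replicate block and single arrays left out. normexp (offset 50) used median signals, because the files hold no mean signal. The offset of 50 is added to every signal, which shrinks the changes of dim probes.

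Probes were named through the RefSeq table of GRCm38.p6, and the array design was drawn on mm9. Only names, gene neighbourhood and promoter sequences were taken from the table. Named records were the 12 largest rises and 12 largest falls among called probes detected on all 6 arrays without overlap of the groups, the 8 largest gains and up to 4 losses by bound, and the 6 brightest. Members, lists and rules were chosen with earlier results of these data known. Same-numbered Control and PRF arrays did not deviate together (correlations 0.145, -0.0838 and 0.0458), so the numbers were not taken as pairs. The number of arrays limits the precision.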

Additional observations from a re-analysis of the deposited data

How the results depend on the processing

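Of 761 comparisons of the 43 named results with other settings, 683 kept direction and call. Counts of XR probes higher and lower (247 and 105) moved most with few arrays: within row 1 to 147 and 15, within row 2 to 0 and 0 (276 at an unadjusted limma p under 0.05), where the 36 named XR calls were all lost; each row leaves 1 arm with 1 sample, assumed to vary like the other. Rises fell to 152 when probes had to be detected on all 6 arrays. Falls went to 206 with spike-in scaling and to 193 when arrays were quantile normalized. Leaving out single arrays gave 198 to 271 higher and 61 to 96 lower. The median change became 0.0654 (tested-probe median), -0.0674 (quantile), -0.0215 (no scaling), -0.0746 (spike-in), 0.0524 (all 6 arrays) and 0.17 (row 2), and 0.089 to 0.179 without single arrays. The detection gain (4.23%) was 6.89% by the positive-and-significant flag, 7.69% with at least 2 of 3 arrays, and 4.35% to 5.70% without single arrays. Unequal XR and NM pairs were 4 with normexp and 2 with no filter (of 17). With the replicate number as a block, 236 were higher and 88 lower, with a median of 0.121, and no named call changed.

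Signs reversed for XR_382082 (-0.00455) and XR_862890 (-0.0316) with quantile normalization. With no scaling they reversed for XR_888583 (-0.00619), XR_382082 (-0.0269), XR_883517 (-0.00837), XR_862890 (-0.0539) and XR_140431 (-0.00361). With spike-in scaling they reversed for XR_888583 (-0.0592), XR_382082 (-0.08), XR_883517 (-0.0614), XR_862890 (-0.107), XR_140944 (-0.0195) and XR_140431 (-0.0566). XR_863970 was 0.0104 with normexp. The cause was not tested. None of these but XR_863970 had been called. Probes near background limit what the array shows.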
